A study of Rattus norvegicus with 6 samples.

Results

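The 10 genes described here encode 9 matricellular proteins, which are secreted into the matrix and signal to cells more than they bear load, and fibronectin, a structural glycoprotein of the early matrix. They were chosen by symbol: the fasciclin-domain proteins periostin (Postn) and TGF-beta-induced protein (Tgfbi), tenascin C (Tnc), thrombospondins 1, 2 and 3 (Thbs1, Thbs2, Thbs3), SPARC (Sparc), the CCN proteins Ccn1 (CYR61) and Ccn2 (connective tissue growth factor), and fibronectin (Fn1). All 10 were found among the 19825 genes of the count table. Messenger RNA was sequenced from H9C2 cells, a rat line derived from embryonic heart that keeps features of skeletal myoblasts and that the labels call cardiomyocytes. The knockdown group (siPUM2, 3 libraries) had received small interfering RNA against PUM2, a Pumilio protein that binds a short element in messages and lowers their stability or translation. The control group (NC, 3 libraries) is labelled as having received an empty vector, and the labels name no non-targeting RNA. As labelled, effects of receiving small interfering RNA cannot be told apart from those of less PUM2.

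Matricellular genes are usually quiet in adult tissue and come on in development, wounding and fibrosis. In injured heart, periostin and tenascin C mark activated fibroblasts, thrombospondin 1 can release active TGF-beta from its latent complex, and SPARC helps collagen to be deposited. Ccn1 and Ccn2 are known to respond within hours to mechanical load through the YAP-TEAD and serum response factor pathways, and Ccn2, Tgfbi, Tnc, Postn and Fn1 are all known to be induced by TGF-beta in fibroblasts.

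The start regions of 5 members are shown first, chosen with their values known, as a description of what the genes that fell most and the CCN genes carry before their starts. Each is the 250 bases before the annotated transcription start from RefSeq, build GRCr8, a later build than the mRatBN7.2 named for the files. Capitals mark GGAATG or its reverse complement CATTCC, the core bound by TEAD factors, and TATAAA, the letters of a TATA box wherever they occur. The first 3 genes are those that fell by the largest factors in siPUM2, and the last 2 are abundant genes that were not called.
Postn, chr2:140677811-140678060, plus strand: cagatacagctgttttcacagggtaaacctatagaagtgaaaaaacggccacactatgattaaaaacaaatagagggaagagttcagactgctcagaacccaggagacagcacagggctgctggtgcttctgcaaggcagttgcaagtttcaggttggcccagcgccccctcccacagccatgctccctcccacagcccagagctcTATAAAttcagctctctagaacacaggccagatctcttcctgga
Tgfbi, chr17:7990114-7990363, minus strand: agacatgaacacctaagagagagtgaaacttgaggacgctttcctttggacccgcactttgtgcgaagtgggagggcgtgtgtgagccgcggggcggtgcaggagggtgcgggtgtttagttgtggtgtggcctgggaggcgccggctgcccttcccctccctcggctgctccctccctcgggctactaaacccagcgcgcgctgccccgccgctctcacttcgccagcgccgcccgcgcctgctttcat
Tnc, chr5:82476132-82476381, minus strand: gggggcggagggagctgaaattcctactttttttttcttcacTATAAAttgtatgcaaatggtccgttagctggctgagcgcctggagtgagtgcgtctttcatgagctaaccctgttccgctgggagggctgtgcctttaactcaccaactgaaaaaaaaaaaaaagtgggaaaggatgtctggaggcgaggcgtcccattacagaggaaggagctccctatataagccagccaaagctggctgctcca
Ccn1, chr2:237225690-237225939, minus strand: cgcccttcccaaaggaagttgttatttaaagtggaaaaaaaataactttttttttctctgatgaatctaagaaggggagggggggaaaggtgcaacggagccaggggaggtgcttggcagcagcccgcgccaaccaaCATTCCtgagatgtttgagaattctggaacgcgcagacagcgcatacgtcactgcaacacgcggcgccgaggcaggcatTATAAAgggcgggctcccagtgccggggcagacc
Ccn2, chr1:22624615-22624864, minus strand: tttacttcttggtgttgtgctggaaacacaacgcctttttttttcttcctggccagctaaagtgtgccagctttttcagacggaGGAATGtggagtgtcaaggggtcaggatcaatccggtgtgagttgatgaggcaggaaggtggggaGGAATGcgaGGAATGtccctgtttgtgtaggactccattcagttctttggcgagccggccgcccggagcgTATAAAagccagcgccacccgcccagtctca

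In the table of start regions, 8 of the 10 members had an entry, and Thbs2 and Fn1 had none. Only the first listed region of each member was read. The 33469 regions cover 27457 genes, so some genes have several, and other starts of the members were not looked at. GGAATG, searched on both strands, was present in 4 of the 8, namely Ccn1, Ccn2, Thbs1 and Sparc, and in 12.1% of all 33469 regions of the same length. Ccn2 held 3 copies, beginning at positions -166, -101 and -92 from the start, and at least 3 copies were found in 0.0807% of all regions. Postn, Tgfbi, Tnc and Thbs3 held none. TATAAA was present in Ccn1, Ccn2, Postn and Tnc, against 12.9% of all regions, beginning at -34, -31, -44 and -208 in that order. The search took only these exact letters. Tnc also reads tatataag close to its start, which was not counted or marked. CAGAC, the short SMAD element, was present in 5 of the 8 members and in 42.9% of all regions. The AP-1 motif TGANTCA (6.34% of all regions), the cyclic AMP element TGACGTCA (1.59%) and the CArG box of serum response factor (1.50%) had no match in the 8. These are letter matches in a short window and were not tested as binding sites.

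**Figure D1:**
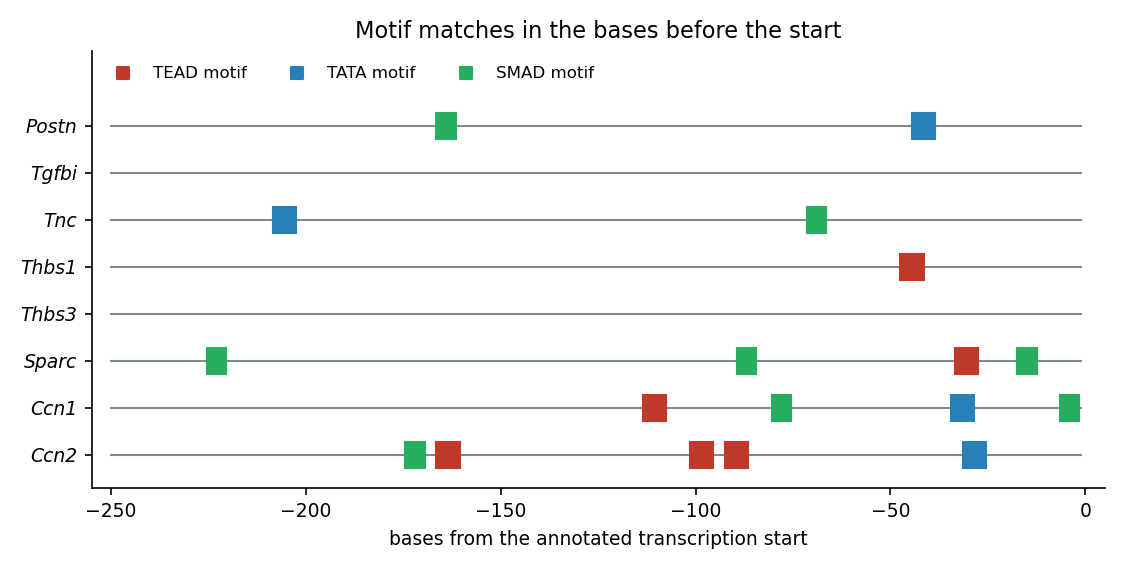
Matches to the TEAD, TATA and SMAD motifs named above, on either strand in the 250 bases before the annotated start of the 8 members with an entry, with the distance in bases from the start on the horizontal axis. TEAD matches lie in Thbs1, Sparc, Ccn1 and Ccn2, with 3 in Ccn2, and in none of Postn, Tgfbi, Tnc and Thbs3.

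The libraries held 27704702 to 30579237 counts, so that 1 count was 0.0327 to 0.0361 per 1000000 counts of its library. CPM below are counts per 1000000 after TMM scaling of the library totals. Pairs of libraries differed by more than sampling noise, with chi-square over degrees of freedom of 2.06 to 3.77 within groups and 12.4 to 13.8 between them. Separate cultures are not stated in the labels, so the p-values rest on a spread between libraries that may be technical. The targeted gene Pum2 was at 127, 125 and 119.7 CPM in siPUM2 1, 2 and 3, against 223, 228 and 225 CPM in NC 1, 2 and 3. It kept 55.1% of its control level (log2 fold change -0.86 ± 0.0279, SE; adjusted p = 9.23e-19 by edgeR's quasi-likelihood test, n = 3 each). A gene was called when its adjusted p was below 0.05, as 3692 of the 12985 genes tested (28.4%) were.

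The label cardiomyocyte was set against defining markers. Myh7, Myl2, Myl7, Tnni3, Actc1 and Ryr2 were at no more than 0.232 CPM in any library, whereas the myoblast factor Myod1 was at 77.3 to 87.8 CPM in siPUM2 and 78.3 to 83.3 CPM in NC. Neither list was uniform. The cardiac factor Nkx2-5 was at 16.4 to 19.0 CPM in siPUM2 and 18.9 to 21.2 CPM in NC. Nppb was at 1.42 to 2.74 CPM and Myh6 at no more than 0.751 CPM over all libraries. The myoblast markers Tnnt1 and Chrna1 were also low, at no more than 0.684 and 0.431 CPM. The summed cardiomyocyte list was at 457 to 513 CPM in siPUM2 and 296 to 353 CPM in NC, nearly all of it Tnnt2, with 1 gene called higher and none lower. Summed myoblast markers were at 359.7 to 384 CPM in siPUM2 and 344 to 349 CPM in NC, with 2 called higher (Des and Cdh15) and 2 lower. The 2 that fell were Myog, a factor of muscle differentiation, at 9.68, 9.22 and 8.79 CPM in siPUM2 1, 2 and 3, against 15.9, 24.4 and 19.9 CPM in NC 1, 2 and 3 (log2 fold change -1.12 ± 0.103, SE; edgeR, adjusted p = 1.86e-09), and the embryonic myosin Myh3 (log2 fold change -0.93; edgeR, adjusted p = 0.00909). These 4 genes were named after their values were seen. Since periostin and tenascin C are used as marks of fibroblasts, markers of those cells were read too. Pdgfra, Dcn, Lum, Dpt and Col14a1 were at no more than 0.331 CPM in any library. The whole fibroblast list, with 7 of 8 genes in the table, 1 called higher and 1 lower, summed to 1073 to 1089 CPM in siPUM2 and 919 to 930.0 CPM in NC, and was carried by Thy1 (871 to 896 CPM in siPUM2, 708 to 719 CPM in NC) and Pdgfrb (193 to 206 CPM in siPUM2, 206 to 219 CPM in NC). Endothelial markers summed to 2.23 to 2.64 CPM in siPUM2 and 2.25 to 2.38 CPM in NC. Macrophage markers, nearly all of it Cd14, summed to 38.6 to 40.8 CPM in siPUM2 and 36.8 to 37.6 CPM in NC, and Schwann or neural markers to 1.32 to 1.75 CPM in siPUM2 and 1.19 to 1.56 CPM in NC. The part of these shifts in the results below was not tested, and in bulk RNA fewer cells of a kind and less RNA per cell cannot be told apart.

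In siPUM2 cells the clear falls were in genes of middle or low abundance. Periostin, TGF-beta-induced protein and tenascin C each fell by at least 1.5-fold. The abundant genes moved by less than 1.2-fold: Thbs1 and Sparc rose slightly, Fn1 fell slightly, and Ccn1 and Ccn2 did not pass the test. Of the 10 members 9 passed the filter on low counts, of which 2 rose, 4 fell and 3 were not called, where 15.1% of all genes tested were called higher and 13.3% lower. A called change of at least 1.5-fold was found for 3 members, all lower, against 1.82% of all genes tested in either direction and 0.693% in the lower one. The members were chosen with earlier results of these data known, so these contrasts with all genes are not independent of that choice. Nor were the members matched for abundance to all genes tested. The libraries of the groups did not overlap for 7 of the 9 members, the 6 called and Thbs3, against 39.9% of all genes tested. The median log2 fold change was -0.047 over the 9 members and 0.0011 over all genes tested.

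**Figure D2:**
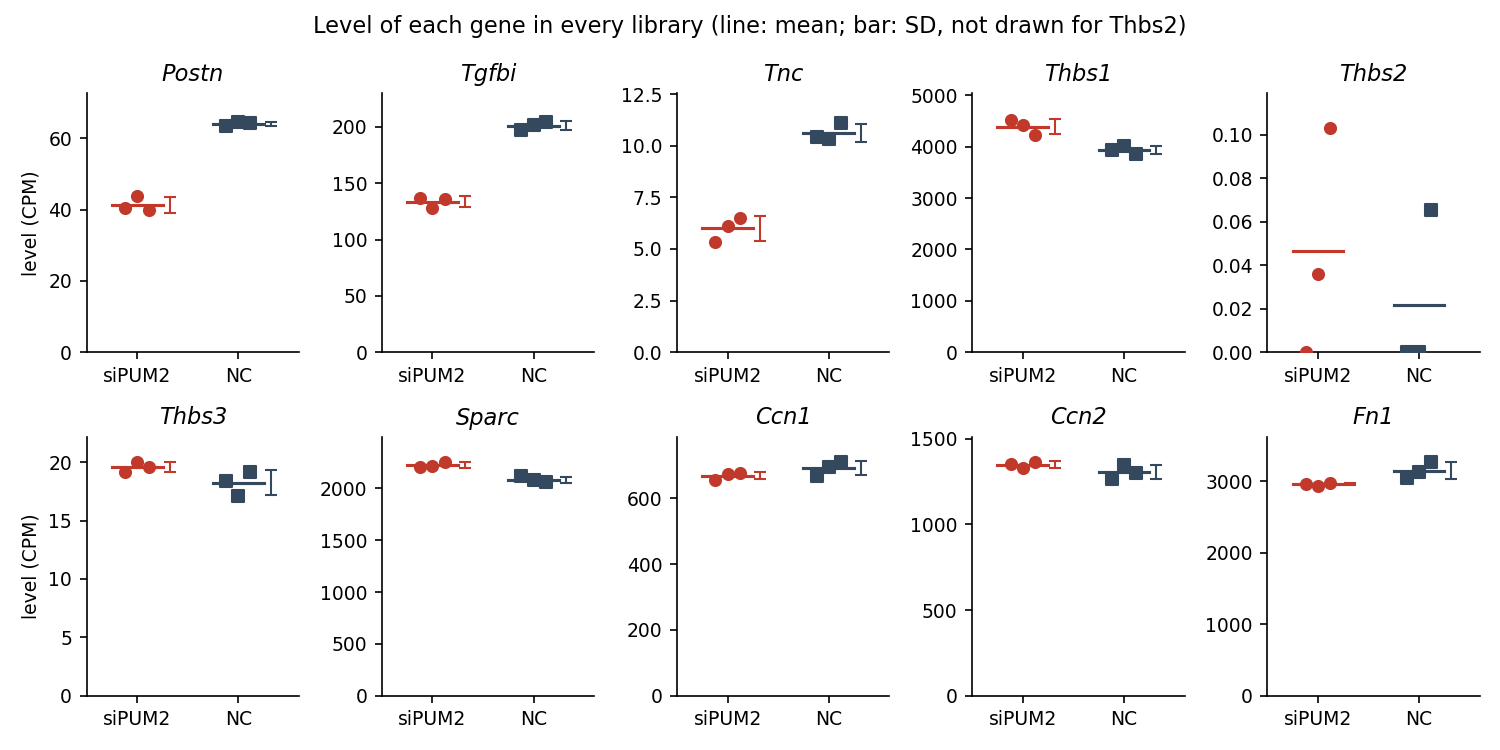
Level of each of the 10 genes in CPM (linear axes from 0) in the 3 siPUM2 and 3 NC libraries, with a point per library, a line at the group mean and a bar for the SD (not drawn for Thbs2). The siPUM2 points lie well below the NC points for Postn, Tgfbi and Tnc, while the groups lie close together for the other genes.

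Periostin takes part in collagen cross-linking and binds integrins through its fasciclin domains. Its message was measured at 40.3, 43.9 and 39.8 CPM in siPUM2 1, 2 and 3, against 63.4, 64.6 and 64.2 CPM in NC 1, 2 and 3. Every siPUM2 library was below every NC library, and the gap was many times the range within either group. The means were 41.3 ± 2.25 CPM in siPUM2 and 64.1 ± 0.590 CPM in NC (SD, n = 3 each), a log2 fold change of -0.63 ± 0.0468 (SE; edgeR, adjusted p = 2.58e-11). That left 64.5% of the control level.

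Tgfbi, the other fasciclin-domain member, is a collagen-binding protein first found as a TGF-beta response gene. Its levels were 137.0, 128 and 136 CPM in siPUM2 1, 2 and 3, against 197, 202 and 205 CPM in NC 1, 2 and 3, again with no overlap. It kept 66.4% of the control level (log2 fold change -0.59 ± 0.0289, SE; edgeR, adjusted p = 9.58e-15), and only 4 of the 12985 genes tested had a lower p. The falls of these paralogs were not shown to differ in size. The log2 ratio of Postn to Tgfbi counts was -1.69 ± 0.131 in siPUM2 and -1.65 ± 0.0195 in NC (SD, n = 3 each), a difference of -0.043 (exact 2-sided permutation p = 0.6, and 0.6 adjusted over 5 pairs of members). With 3 libraries against 3 this test cannot go below 0.1.

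Tenascin C, a hexameric protein that loosens the hold of cells on fibronectin, had the largest fold change of the set and the lowest level of the 9 members tested. It drew 150, 170 and 190 counts in siPUM2 1, 2 and 3, against 291, 312 and 342 counts in NC 1, 2 and 3. The groups were separate, at 5.34 to 6.52 CPM in siPUM2 and 10.3 to 11.1 CPM in NC. The log2 fold change was -0.83 ± 0.0983 (SE; edgeR, adjusted p = 1.92e-07), a level 56.4% of control, and 68 of the genes tested had a lower fold change. The coefficient of variation over libraries was 10.1% in siPUM2 and 4.24% in NC, where counting alone gives 7.67% in siPUM2 and 5.63% in NC. On log2(FPKM + 1) the difference came to -0.40, since the added 1 is close to the gene's own FPKM.

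Thrombospondin 1, a trimeric glycoprotein that binds CD47 and can activate latent TGF-beta, rose slightly from a high base. It was at 4523, 4428 and 4224 CPM in siPUM2 1, 2 and 3, against 3934, 4021 and 3864 CPM in NC 1, 2 and 3. The lowest siPUM2 library was above the highest NC library. The log2 fold change was 0.16 ± 0.0267 (SE; edgeR, adjusted p = 4.59e-05), a 1.11-fold rise. Thrombospondin 3, a pentameric relative of cartilage oligomeric matrix protein, was far lower, at 5.33, 5.52 and 5.41 FPKM in siPUM2 1, 2 and 3 and 5.10, 4.74 and 5.32 FPKM in NC 1, 2 and 3. Its groups met almost edge to edge and it was not called, with a log2 fold change of 0.11 (95% interval -0.023 to 0.233; edgeR, adjusted p = 0.222). The log2 ratio of Thbs1 to Thbs3 counts differed by 0.049 (exact 2-sided permutation p = 0.4; 0.5 adjusted over the 5 pairs), so the rise was not shown to differ between these paralogs, and without NC 3 the difference was -0.0012.

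Thrombospondin 2, the trimeric relative of thrombospondin 1 and an inhibitor of angiogenesis, was all but undetected. It drew 0, 1 and 3 counts in siPUM2 1, 2 and 3, against 0, 0 and 2 counts in NC 1, 2 and 3. The 4 counts of the siPUM2 group (95% Poisson interval 1.09 to 10.2) correspond to 0.0471 per 1000000 unscaled counts and the 2 counts of the NC group (0.242 to 7.22) to 0.0225, both near what 3 counts in a whole group would give (0.0353 in siPUM2, 0.0338 in NC). Thbs2 did not pass the filter and no fold change is given. In RefSeq, Tnc and Thbs1 each overlap a long noncoding RNA gene that is not analysed here, whose reads could not be told apart from theirs without the strand setting of the counting.

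SPARC, a collagen-binding protein of the endoplasmic reticulum and matrix that lowers cell adhesion, had the highest level per length of the set. It was at 2209, 2213 and 2258 CPM in siPUM2 1, 2 and 3, against 2117, 2076 and 2057 CPM in NC 1, 2 and 3. Every siPUM2 library was above every NC library by a small margin. The log2 fold change was 0.10 ± 0.0240 (SE; edgeR, adjusted p = 0.00310), a 1.07-fold rise.

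The CCN genes, whose proteins bind integrins and heparan sulphate and are read as targets of YAP and TEAD, were not called. Ccn1 was at 656, 674 and 677 CPM in siPUM2 1, 2 and 3, against 668, 696 and 709.5 CPM in NC 1, 2 and 3. Ccn2 was at 1352, 1327 and 1367 CPM in siPUM2 1, 2 and 3, against 1266, 1347 and 1299 CPM in NC 1, 2 and 3. In both genes the groups overlapped. The 95% interval of the log2 fold change was -0.10 to 0.006 for Ccn1 (adjusted p = 0.187, edgeR) and -0.004 to 0.101 for Ccn2 (adjusted p = 0.17, edgeR). Their estimates had opposite signs. The log2 ratio of Ccn1 to Ccn2 counts was -1.04, -0.98 and -1.01 in siPUM2 1, 2 and 3, against -0.92, -0.95 and -0.87 in NC 1, 2 and 3. It was lower in every siPUM2 library, a difference of -0.095 (exact 2-sided permutation p = 0.1, the smallest the design allows; 0.167 adjusted over the 5 pairs).

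Fibronectin, the dimeric glycoprotein that cells assemble into fibrils through integrin alpha5 beta1, fell slightly. It was at 2965, 2943 and 2976 CPM in siPUM2 1, 2 and 3, against 3047, 3133 and 3277 CPM in NC 1, 2 and 3. The siPUM2 libraries were tightly grouped (SD 17.3 CPM) below a wider NC group (SD 116 CPM). The log2 fold change was -0.09 ± 0.0262 (SE; edgeR, adjusted p = 0.00968), a 1.06-fold fall, and the call was lost without NC 3, the highest library (-0.062, adjusted p = 0.0940, edgeR). Against fibronectin within the same library, tenascin C and periostin were lower in all 3 siPUM2 libraries than in any NC library. The log2 ratio of Tnc to Fn1 counts differed by -0.74 and that of Postn to Fn1 by -0.54, each with an exact 2-sided permutation p = 0.1, the smallest possible, and 0.167 adjusted over the 5 pairs.

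**Figure D3:**
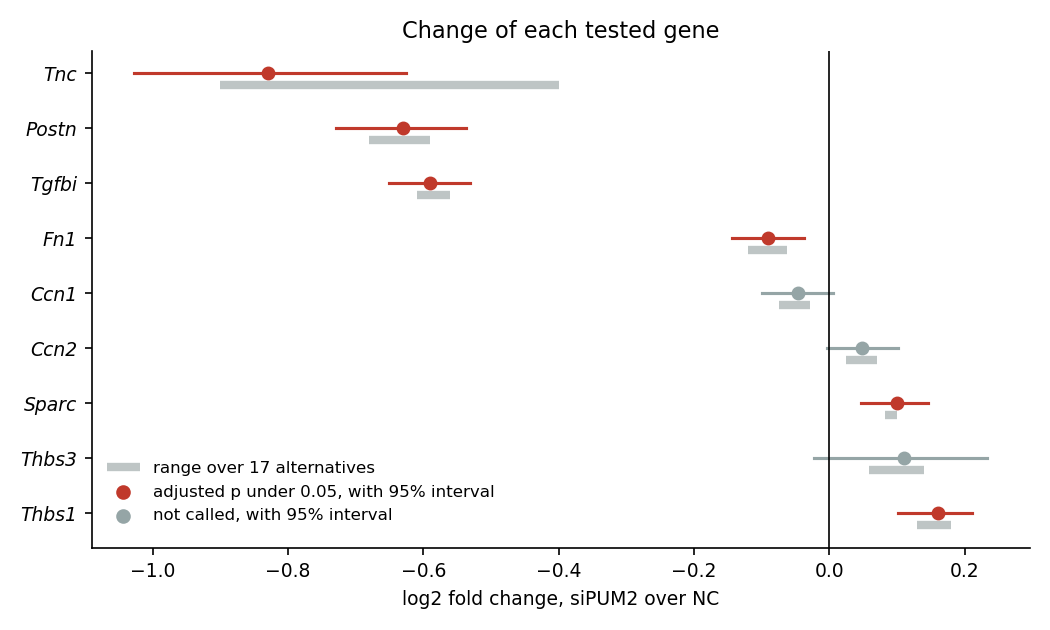
Log2 fold change of siPUM2 over NC for the 9 members tested, with a point for the estimate, a thin line for its 95% interval and a grey bar for the range over 17 alternative analyses. Tnc, Postn and Tgfbi lie at -0.83, -0.63 and -0.59, and the other 6 lie between -0.09 and 0.16; the wide bar of Tnc reaches -0.40 on log2(FPKM + 1).

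Levels between genes were compared on the deposited FPKM, which divide by gene length. The order was the same in both groups: Sparc, Thbs1, Ccn2, Fn1, Ccn1, Tgfbi, Postn, Thbs3, Tnc and Thbs2. Sparc stood at 924 ± 9.52 FPKM in siPUM2 and 866 ± 11.7 FPKM in NC (SD, n = 3 each), the 84th highest of 19535 genes in siPUM2 and the 97th in NC. Thbs1 stood at 679.9 ± 25.1 FPKM in siPUM2 and 611 ± 11.3 FPKM in NC. Ccn2 stood at 510.5 ± 6.93 FPKM in siPUM2 and 495 ± 15.4 FPKM in NC, Fn1 at 314 ± 1.54 FPKM in siPUM2 and 335 ± 12.8 FPKM in NC, and Ccn1 at 298 ± 4.50 FPKM in siPUM2 and 309 ± 9.79 FPKM in NC. The closest neighbours were Fn1 and Ccn1, 1.05-fold apart in siPUM2 and 1.08-fold in NC, and even these did not overlap across the libraries of a group. A wide step followed to Tgfbi, at 42.8 ± 1.58 FPKM in siPUM2 and 64.6 ± 1.33 FPKM in NC, so that Ccn1 exceeded Tgfbi 6.96-fold in siPUM2 and 4.77-fold in NC. Postn stood at 10.7 ± 0.594 FPKM in siPUM2 and 16.7 ± 0.157 FPKM in NC and ranked 4582nd in siPUM2 and 3477th in NC. The margin of Postn over Thbs3 was 1.98-fold in siPUM2 and 3.30-fold in NC. Tnc stood at 0.697 ± 0.0709 FPKM in siPUM2 and 1.24 ± 0.0551 FPKM in NC. Together the 10 genes took 1.16% to 1.19% of all counts in siPUM2 and 1.13% to 1.15% in NC, most of it from Thbs1, Fn1 and Sparc. All 4 genes with a TEAD motif before their start were among the 5 most abundant members, and Fn1, the other of the 5, had no entry; no test was made of this.

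**Figure D4:**
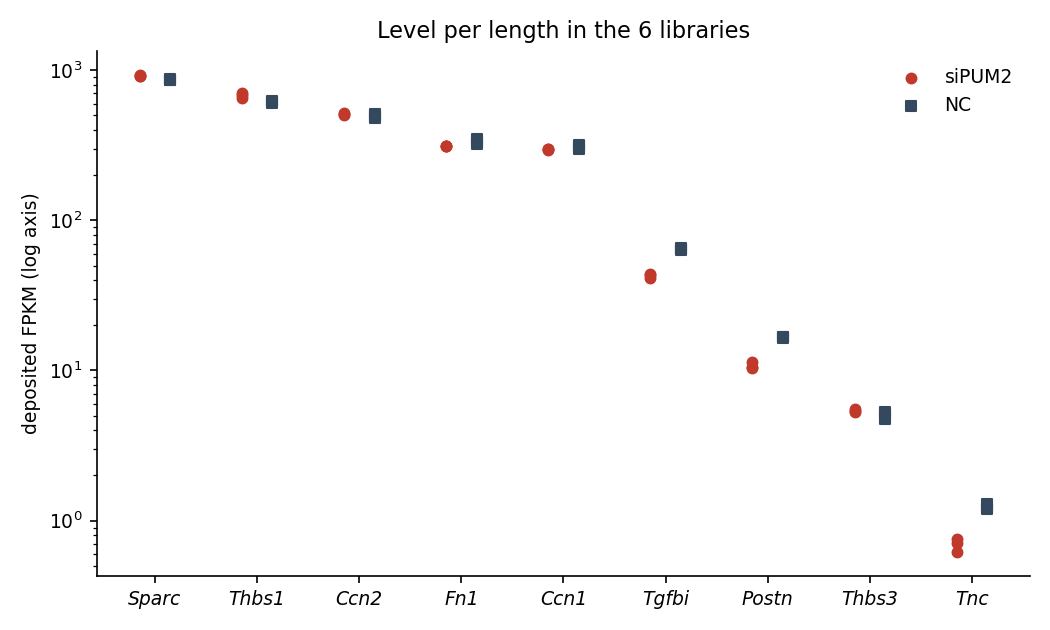
Deposited FPKM of 9 members on a log axis in the 3 siPUM2 libraries (circles) and 3 NC libraries (squares), ordered by NC level, with Thbs2 (at most 0.02 FPKM) left out. Sparc, Thbs1, Ccn2, Fn1 and Ccn1 lie near or above 298 FPKM in both groups, and Tgfbi, Postn and Tnc lie lower in siPUM2.

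Tgfbi had the lowest p of the set, and the genes whose log2 CPM, centred over the 6 libraries, lay closest to its own were Cdh11 (root mean square difference 0.0486), Itga11 (0.0489), Mlx (0.0533), Arc (0.0555) and Rpia (0.0558). Cdh11 encodes cadherin 11, a mesenchymal cell-adhesion molecule, and was at 15.5 CPM in siPUM2 and 24.2 CPM in NC. Itga11 encodes a collagen-binding integrin chain of mesenchymal cells and was at 100.4 CPM in siPUM2 and 155 CPM in NC. With 6 libraries in 2 groups this likeness is mostly the shared difference between the groups.

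Other matricellular genes also split. Of 22 genes on that list 10 were tested, of which 4 rose, 3 fell and 3 were not called, with a median log2 fold change of 0.085 against 0.0011 over all genes tested. Ccn4 (WISP1) rose 1.14-fold, at 327 ± 7.22 CPM in siPUM2 and 285 ± 1.87 CPM in NC (SD, n = 3 each; edgeR, adjusted p = 9.63e-07), while Ccn5 (WISP2), the CCN protein that lacks the C-terminal domain, fell 1.30-fold (edgeR, adjusted p = 0.000507). Osteopontin (Spp1) rose 1.09-fold to 791 CPM in siPUM2, against 726 CPM in NC, and galectin 3 (Lgals3) fell to 147 CPM in siPUM2, against 161 CPM in NC. On log2(FPKM + 1) 2 genes of the list were called higher and 1 lower, and the calls for Ccn5 (adjusted p = 0.0845, limma) and Spp1 (0.0619) were lost.

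Among receptors of these proteins more genes rose than fell. Of 26 receptors 19 were tested, and 7 rose, 2 fell and 10 were not called, with a median log2 fold change of 0.088. Over all genes tested, 15.1% were called higher and 13.3% lower. Without NC 1, 1 receptor was called lower, and on log2(FPKM + 1) 4 were called higher and 1 lower. Integrin alpha8 (Itga8), which pairs with beta1 to bind fibronectin and tenascin C, rose 1.72-fold, at 95.7 ± 2.68 CPM in siPUM2 and 55.5 ± 0.945 CPM in NC (SD, n = 3 each; edgeR, adjusted p = 1.39e-15). Its partner Itgb1 rose as well, to 2377 ± 33.9 CPM in siPUM2, against 1902 ± 15.1 CPM in NC (log2 fold change 0.32; edgeR, adjusted p = 2.81e-11). Lrp1, the endocytic receptor that clears thrombospondin 1, rose 1.14-fold, and calreticulin (Calr), its partner at the cell surface, fell 1.11-fold. Integrin alpha5 (Itga5), the main fibronectin receptor chain, was at 222 CPM in siPUM2 and 223 CPM in NC and was not called (edgeR, adjusted p = 0.953); it was picked here for its role, after its value was seen.

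For partners in fibronectin assembly, 20 of 23 genes were tested, and 7 rose, 5 fell and 8 were not called (median log2 fold change 0.040). Those called lower were 3 without NC 2 and 2 on log2(FPKM + 1). Adamts1, a protease known to cleave thrombospondins, rose 1.34-fold, at 505 ± 7.70 CPM in siPUM2 and 378 ± 13.3 CPM in NC (SD, n = 3 each; edgeR, adjusted p = 1.31e-12). The tensins Tns1 (1.29-fold) and Tns3 (1.14-fold), which link integrins to actin where fibronectin fibrils form, rose, and zyxin (Zyx), a focal adhesion protein, fell 1.13-fold.

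The TGF-beta list, whose signal induces several members, gave 8 genes that rose, 4 that fell and 6 not called among 18 tested of 19 (median log2 fold change 0.060). The ligands Tgfb3 and Tgfb2 rose 1.34-fold and 1.23-fold, the latent TGF-beta binding protein Ltbp1 rose 1.12-fold, and Ltbp4 fell 1.22-fold (edgeR, adjusted p = 1.97e-09). The third ligand, Tgfb1, fell 1.11-fold, at 153 CPM in siPUM2 and 170.2 CPM in NC (edgeR, adjusted p = 0.000965); it was named after its value was seen. On log2(FPKM + 1) 2 genes of the list were called lower.

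On the list of YAP-TEAD and serum response factor regulators with their other targets, all 22 genes were tested, and 1 rose, 9 fell and 12 were not called (median log2 fold change -0.016). Without NC 3, 3 genes of this list were called higher, without siPUM2 3, 2 were, and 6 were called lower without NC 2 or without siPUM2 2. Ankrd1, a cardiac repeat protein that is a target of YAP, rose 1.24-fold, at 2689 ± 27.8 CPM in siPUM2 and 2174 ± 7.38 CPM in NC (SD, n = 3 each; edgeR, adjusted p = 5.60e-11). Egr1 (1.47-fold) and the AP-1 subunit Fosl1 (1.23-fold), early response genes, fell, as did the LIM protein Ajuba (1.15-fold). The lists were read against 28.4% of all genes tested called in either direction (15.1% higher and 13.3% lower): 70.0% of the matricellular relatives, 47.4% of the receptors, 60% of the assembly partners, 66.7% of the TGF-beta list and 45.5% of the YAP-TEAD list were called, and no test was made of these shares. The lists too were chosen with earlier results of these data known. They were not matched for abundance to all genes tested, and smaller changes can be called in abundant genes. Among the members, Sparc was called at 1.07-fold (mean 2226 CPM in siPUM2). Thbs3 was not called at 1.08-fold (mean 19.6 CPM in siPUM2).

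**Figure D5:**
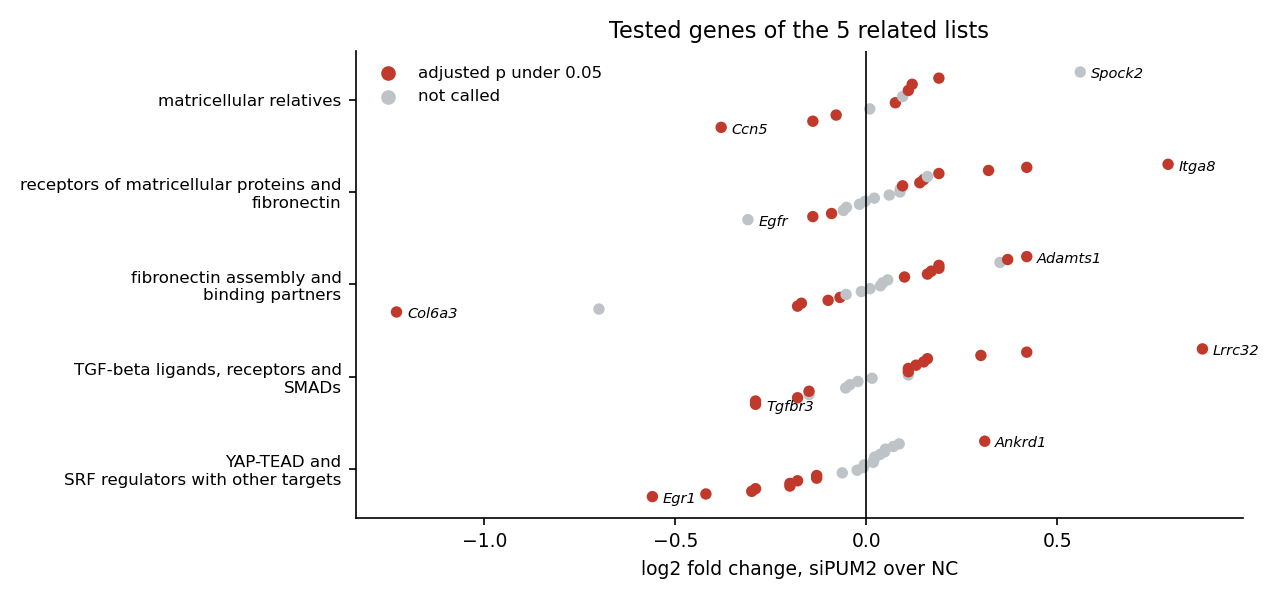
Log2 fold change of siPUM2 over NC for every tested gene of the 5 lists of related genes, with red points for genes called at an adjusted p under 0.05, grey points for the rest, and the lowest and highest gene of each list named. Itga8 among the receptors and Lrrc32 on the TGF-beta list lie farthest to the right of their lists. Col6a3 has the lowest fold change of all, from few and scattered counts (35, 10 and 15 in siPUM2 1, 2 and 3, against 53, 43 and 51 in NC 1, 2 and 3).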

How the data were processed

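Per the labels' protocols, polyadenylated RNA was made into directional paired-end libraries. HISAT2, DESeq2 and build mRatBN7.2 are listed per the submitters' processing notes. For versions, annotation, the counting program and strand setting the entry is "not given in the sources used here", so reads of antisense genes cannot be told apart. The authors deposited raw counts per gene and FPKM (per length and depth, to 2 decimals). Here counts were tested with edgeR 4.0.16 in R 4.3.3 (quasi-likelihood, TMM, group as the only term) on 12985 genes that passed filterByExpr; 6840 genes with 0.0465% of counts were left out. Benjamini-Hochberg adjustment covered every gene tested. The SE of a log2 fold change was derived here, as its size divided by the square root of the test's F statistic. The 95% intervals of fold changes use this SE with a t quantile. CPM use TMM scaling; fold changes are siPUM2 over NC. The test was tested on simulated data. Alternatives used limma 3.58.1, DESeq2 1.42.0 and FPKM. For levels in counts or CPM, precision is that of counting plus the spread of 3 libraries; intervals on counts cover counting error only.

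The members and lists were chosen with earlier results of these data known. Genes named were all members, Pum2, the 4 lowest p of each related list, and the 5 genes closest to the member with the lowest p. Itga5, Tgfb1, marker genes and the extreme points labelled in the plot of related lists were named outside this rule, after their values were seen. The count ratio of Thbs1 to Thbs2 was not computed, since Thbs2 had libraries at 0.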

Additional observations from a re-analysis of the deposited data

How the results depend on the processing

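All 9 tested members kept their direction under all 17 alternatives (other scaling factors, filters and tools, FPKM in place of counts, the replicate block, each library left out, and an adjusted p under 0.01), and 8 kept their side of the threshold. The exception was Fn1, which lost its call without NC 3 (-0.062, adjusted p = 0.0940, edgeR) and without a filter on log2(FPKM + 1) (adjusted p = 0.106, limma) or log2(FPKM + 0.1) (0.103); the cause was not tested. Members called lower were then 3 in place of 4, and those called higher stayed at 2 throughout. The range over alternatives was -0.68 to -0.59 for Postn, -0.61 to -0.56 for Tgfbi, -0.90 to -0.40 for Tnc, 0.13 to 0.18 for Thbs1 and 0.082 to 0.10 for Sparc. Without siPUM2 3, which stood farthest from its group in the chi-square, all 6 calls stood. The setting at an adjusted p under 0.01 reuses the main fit, so no direction could change there. Where a filter asked for 1 FPKM in 3 libraries, Tnc passed only through NC. It was at 1.20 to 1.30 FPKM in NC and 0.62 to 0.76 FPKM in siPUM2, so its result there is not independent of the filter.

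Over all genes the count fell to 2246 (1160 higher, 1086 lower) on log2(FPKM + 1) and to 2296 (1176 and 1120) on log2(FPKM + 0.1), against 3692; the cause was not tested. At an adjusted p under 0.01, 1126 genes were called lower, a stricter threshold by construction. The difference in the log2 ratio of Thbs1 to Thbs3 ran from -0.0012 (without NC 3) to 0.11 as each library was left out. Replicate numbers are shared by the groups, but same-numbered libraries did not deviate together (r = 0.0342, 0.0204 and 0.0027 across genes for numbers 1, 2 and 3), and siPUM2 2 correlated best with NC 3; with the replicate number as a block 3731 genes were called, and the members' calls were the same.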
